A study of Mus musculus with 20 samples.

Results

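Antiviral restriction factors are host proteins that block a virus inside or at the surface of the infected cell. The 10 genes described here, Mx1, Mx2, Bst2, Rsad2, Cmpk2, Eif2ak2, Samhd1, Adar, Apobec3 and Isg20, were chosen by name and are 10 of the 55487 genes in the count table. All 10 were among the 12799 genes that passed the filter on low counts. RNA was sequenced from 20 samples of BV-2, an immortalized mouse microglial line derived from C57BL/6 brain cultures and labelled WT, in 4 groups of 5. The groups were young untreated, young LPS, aged untreated and aged LPS, and LPS, a bacterial cell wall component, was given at 100 ng/ml for 6 hours. Aged cells were not taken from old animals. They had been kept in culture for months from a later starting passage than the young cells, so that time in culture and starting passage cannot be told apart, and aged samples came from aliquots frozen after that cultivation. The replicate number equals the batch number in the labels, and every batch held 1 sample of each group. The study describes the replicates as independent biological ones, the labels do not say how they were kept apart, and p-values measure the spread between these samples.

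LPS is sensed by Toll-like receptor 4, whose TRIF arm leads to interferon beta. Secreted interferon acts back on the cells through its receptor and the kinases Jak1 and Tyk2, and a transcription factor complex that includes Stat2 and Irf9 then binds interferon-stimulated response elements in front of many antiviral genes. The factors act at different steps of infection. Mx GTPases trap incoming viral particles, the products of Rsad2, Cmpk2 and Samhd1 act on nucleotides, Eif2ak2 halts translation, Adar and Apobec3 deaminate nucleic acids, Isg20 degrades RNA, and Bst2 tethers budding virions to the cell surface.

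Promoter windows that hold the core letters of such an element are shown first. Binding and activity at these matches were not measured. The RefSeq promoter table of GRCm38.p6 holds 8 of the 10 genes, in 13 windows of 300 bases that run from 250 bases before to 50 bases after a start. Mx1 and Mx2 have no entry. The core of the element was searched on both strands as GAAANNGAAA and was found in windows of 4 members, Bst2, Rsad2, Apobec3 and Eif2ak2, against 3.99% of the 27025 genes of the table. Capitals mark the match, and each line is read 5′ to 3′ on the strand of the gene. In Bst2 a pair of matches overlap and the first starts 130 bases before the start site. The Rsad2 match starts 120 bases before the start site and the Apobec3 match 140 bases before it, both on the opposite strand.
Bst2: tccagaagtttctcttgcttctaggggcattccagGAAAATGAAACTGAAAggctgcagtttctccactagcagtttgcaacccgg
Rsad2: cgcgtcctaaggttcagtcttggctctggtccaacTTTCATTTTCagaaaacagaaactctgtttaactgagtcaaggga
Apobec3: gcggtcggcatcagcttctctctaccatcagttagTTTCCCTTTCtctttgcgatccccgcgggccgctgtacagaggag
The Bst2 window is chr8:71537552-71537637 on the minus strand and the Rsad2 window is chr12:26456528-26456607 on the minus strand, and neither overlaps an annotated exon. The Apobec3 window, chr15:79892233-79892312 on the plus strand, overlaps exons annotated for Apobec3 and for the antisense gene D730005E14Rik. The Eif2ak2 match lies 18 bases after the start, inside the transcript. The windows of Cmpk2, Samhd1, Adar and Isg20 do not contain these letters.

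Every one of the 10 transcripts rose with LPS, in young and in aged cells. Under LPS every one was then lower in aged than in young cells, at 20.3% to 69.3% of the young level. Without LPS the age difference was called for Rsad2 and Cmpk2, which were lower in aged cells. The plot of all 10 transcripts by library shows these levels in CPM, counts scaled to the size of the library. A change is called here at an adjusted p below 0.05 in edgeR's quasi-likelihood test, adjusted by Benjamini-Hochberg over all 12799 genes. With LPS, 10 of 10 were higher in young cells, where 31.2% of all genes were called higher, and 10 of 10 were higher in aged cells, where 27.5% were. Mx1, Mx2 and Isg20 passed the filter only through the LPS groups, and a rise was to be found in any gene that did so. In aged against young cells under LPS, 10 of 10 were lower, with 15.0% of all genes called lower, and in untreated cells 2 of 10 were lower, with 7.81% of all genes called lower. The interaction of age and LPS, the log2 change with LPS in aged cells minus that in young cells, was below 0 for 6 of 10 and called for 3 of these, Samhd1, Adar and Apobec3, where 2.27% of all genes were called below 0. In these bulk samples, fewer responding cells and less RNA per cell cannot be told apart.

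**Figure D1:**
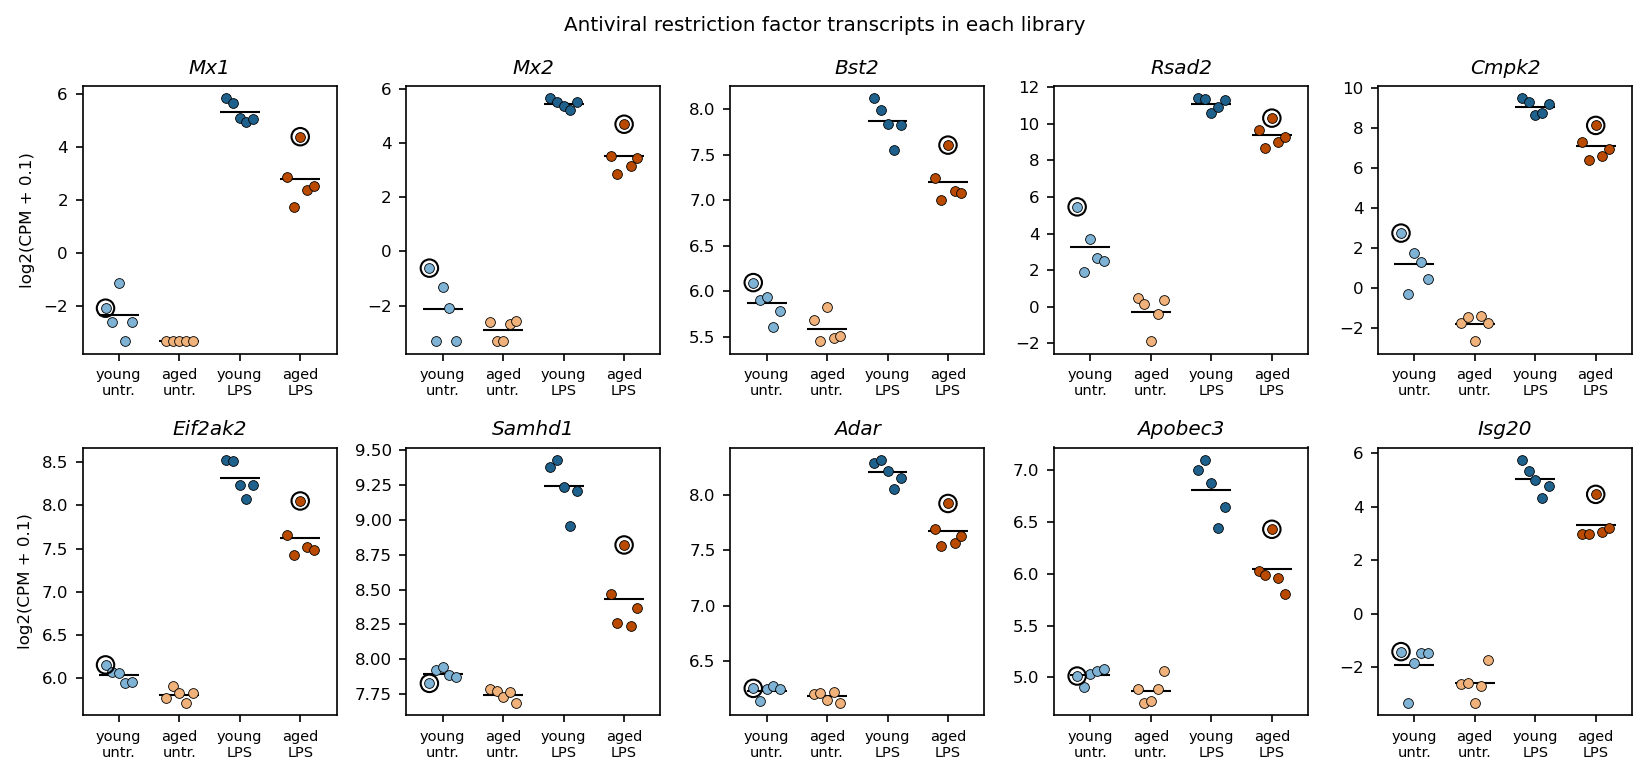
Level of each transcript in each of the 20 libraries, as log2 of CPM plus 0.1, with the 5 replicates of a group in order from left to right and a bar at the group mean. Open circles mark young untreated replicate 1 and aged LPS replicate 3, and aged LPS replicate 3 is the highest of its group in 10 of 10 panels.

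Levels of different genes were compared as TPM, which scales counts to transcript length as well as to library size. In young untreated cells Bst2 led at 236 ± 26.9 TPM (SD, n = 5), followed by Samhd1 at 94.5 ± 4.56, Eif2ak2 at 46.8 ± 2.53, Adar at 33.8 ± 1.48 and Apobec3 at 12.5 ± 0.612 TPM, with no overlap between neighbours in this order down to Apobec3. Rsad2, at 11.9 ± 13.7 TPM, overlapped both Apobec3 and Cmpk2, which stood at 2.45 ± 1.96 TPM, and Isg20, Mx2 and Mx1 were below 1 TPM. LPS reordered the list. In young LPS cells Rsad2 was first at 1574 ± 339 TPM, ahead of Bst2 at 799 ± 105 and Cmpk2 at 400.4 ± 94.8 TPM, again without overlap between these neighbours. Aged LPS cells had Rsad2 at 544 ± 251 and Bst2 at 544 ± 96.2 TPM, and the libraries of these genes overlapped. Mx1 was last in both LPS groups, at 33.6 ± 9.5 TPM in young and 7.31 ± 6.15 TPM in aged cells, where neighbours from Apobec3 down to Mx1 overlapped.

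Mx1 and Mx2 lie side by side on chromosome 16 with their starts 72.4 kb apart (GRCm38, Mx1 97447035 to 97462907 on the minus strand and Mx2 97535308 to 97560900 on the plus strand). The annotation calls Mx2 a polymorphic pseudogene, and Mx1 of C57BL/6 and many other laboratory strains is known to give no functional protein, so that these values are of transcripts. Without LPS, Mx1 had counts of 2, 1, 6, 0 and 1 in young replicates 1 to 5 and 0 counts in all 5 aged libraries, where 3 counts correspond to at most 0.202 CPM. Mx2 had counts of 8, 0, 5, 2 and 0 in young and 1, 0, 0, 1 and 1 in aged cells. At these depths no fold between untreated groups is given for either gene, and neither difference was called by edgeR (adjusted p = 0.432 for Mx1 and 0.383 for Mx2).

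With LPS, Mx1 reached 57.7, 51.4, 34.3, 30.8 and 33.6 CPM in young replicates 1 to 5 and 7.23, 3.22, 21, 5.11 and 5.71 CPM in aged ones. The age groups did not overlap, and aged replicate 3 lay closest to the young. Over the summed counts of a group, Mx1 was 311-fold higher with LPS in young cells (95% counting interval 169 to 648), and in aged cells it was at least 47.2-fold higher, taken against 3 counts per library. Mx2 reached 50.6, 46.0, 41.0, 37.1 and 46.1 CPM in young and 11.4, 7.09, 25.9, 8.75 and 10.9 CPM in aged LPS cells. Its summed counts rose 224-fold in young cells (136 to 401) and 355-fold in aged cells (121 to 1724), the latter against 3 counts in 5 libraries. Taken against 3 counts per library, as for Mx1, the aged ratio was 71, so that no order of the ages is read from these folds. In aged against young LPS cells edgeR gave log2 differences of -2.27 ± 0.344 (SE) for Mx1 (adjusted p = 7.06e-05) and -1.77 ± 0.238 for Mx2 (adjusted p = 8.39e-06). Each SE of a log2 change was derived from the F statistic of the test. Without aged LPS replicate 3 the Mx1 difference grew from 4.83-fold to 7.7-fold. The fitted rise in young cells was 552-fold in place of 299-fold for Mx1 without young untreated replicate 3, and 365-fold in place of 216-fold for Mx2 without young untreated replicate 1.

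Rsad2, which encodes viperin, a radical SAM enzyme that makes a chain-terminating nucleotide, and Cmpk2, a mitochondrial nucleotide kinase, are head-to-head neighbours on chromosome 12 with starts 12.8 kb apart (Rsad2 26442746 to 26456452 on the minus strand, Cmpk2 26469204 to 26479837 on the plus strand). These were the members whose untreated level differed by age. Rsad2 stood at 43.7, 3.64, 12.7, 6.2 and 5.59 CPM in young untreated replicates 1 to 5 and at 1.29, 1.01, 0.171, 0.659 and 1.2 CPM in aged ones, without overlap. Cmpk2 stood at 6.55, 0.703, 3.2, 2.37 and 1.26 CPM in young and at 0.194, 0.269, 0.0571, 0.275 and 0.2 CPM in aged untreated cells. The Cmpk2 groups did not overlap either, although the aged values rest on 1 to 5 counts per library. Aged untreated cells were lower by a log2 difference of -4.07 ± 0.734 for Rsad2 (edgeR, adjusted p = 0.000948) and of -3.76 ± 0.939 for Cmpk2 (adjusted p = 0.0115). Young replicate 1 was the highest for both genes. Without that library the Rsad2 difference was 8.34-fold in place of 16.8-fold, and with the whole of batch 1 left out it was 9.57-fold and still called, whereas the Cmpk2 call was lost (adjusted p = 0.0867).

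With LPS, Rsad2 rose to 2673, 2599.9, 1517, 1884 and 2471 CPM in young replicates and to 811, 408, 1256, 505 and 616 CPM in aged ones. No other member gained as many transcripts, 2215 CPM on average in young and 718 CPM in aged cells. On the fold scale the order of the ages was the other way round, with a log2 change of 7.29 ± 0.521 in young cells (156-fold, adjusted p = 3.07e-11) and of 9.72 ± 0.66 in aged cells (846-fold, adjusted p = 2.41e-11). The interaction was 2.44 (95% interval 0.58 to 4.29) and was not called (adjusted p = 0.116), although without a low-count filter its adjusted p was 0.0304. Leaving out young untreated replicate 1 raised the fold in young cells to 314, and leaving out batch 3 lowered that in aged cells to 561. Cmpk2 reached 709, 623, 389.8, 423 and 579.8 CPM in young and 155, 84.5, 276, 95.8 and 121 CPM in aged LPS cells. Its log2 change was 7.60 ± 0.392 in young and 9.47 ± 0.549 in aged cells (712-fold, and 462-fold without batch 3), and the interaction of 1.87 was not called (adjusted p = 0.385). The aged rise of Cmpk2 rests on 16 untreated counts, and over summed counts it was 759.9-fold (95% counting interval 468 to 1329.9). Under LPS the aged level was 32.3% of the young for Rsad2 (log2 -1.63 ± 0.394, adjusted p = 0.00317) and 26.9% for Cmpk2 (log2 -1.89 ± 0.271, adjusted p = 1.69e-05), and the age groups of both genes did not overlap.

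Samhd1 (chromosome 2, 157097533 to 157135265, minus strand) hydrolyses deoxynucleotides and so starves reverse transcription. It had the smallest rise with LPS of the 10 in both ages. Untreated values were 227, 243, 246, 237 and 234 CPM in young and 220.5, 218, 212, 217 and 206 CPM in aged replicates. All aged values were below all young ones, but by a log2 difference of only -0.15 ± 0.0894, which was not called (adjusted p = 0.326). LPS values were 665, 691, 602, 497 and 591 CPM in young and 354, 307, 452, 302 and 330.1 CPM in aged cells, again apart. The rise was 2.56-fold in young (log2 1.36 ± 0.0904, adjusted p = 8.61e-12) and 1.63-fold in aged cells (log2 0.70 ± 0.0896, adjusted p = 6.71e-07), and aged LPS cells were lower than young ones by a log2 difference of -0.80 ± 0.0893 (adjusted p = 1.05e-06). The interaction was -0.66 (95% interval -0.92 to -0.40, adjusted p = 0.00262).

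Adar (chromosome 3, 89715022 to 89753446, plus strand) edits adenosine to inosine in double-stranded RNA. Its interferon-inducible and constitutive isoforms are counted together. Untreated values were 76.4, 70.5, 76.3, 77.5 and 76.0 CPM in young and 73.9, 74.0, 70.9, 74.9 and 69.8 CPM in aged cells, and these overlapped (log2 -0.05 ± 0.0637, adjusted p = 0.68). With LPS, young cells had 311, 318, 296, 265 and 283 CPM and aged cells 207, 186, 242, 189 and 197 CPM. All aged values lay below all young ones. Adar rose 3.91-fold in young (adjusted p = 4.68e-17) and 2.81-fold in aged cells (adjusted p = 8.06e-15). The difference under LPS was -0.53 ± 0.0616 on the log2 scale (adjusted p = 1.72e-06) and the interaction was -0.48 (-0.66 to -0.29, adjusted p = 0.00202). Chrnb2 overlaps the 3′ part of Adar on the other strand with at most 56 counts in any library, against at least 1048 for Adar.

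Apobec3 (chromosome 15, 79891659 to 79915906, plus strand) deaminates cytidines in single-stranded viral DNA. Young untreated cells had 32.2, 30.0, 32.7, 33.2 and 33.8 CPM and aged ones 29.5, 26.9, 27.3, 29.6 and 33.2 CPM, with overlap (adjusted p = 0.483). With LPS the values were 128, 137, 117, 86.7 and 99.6 CPM in young and 64.9, 63.5, 86.0, 62.2 and 55.8 CPM in aged cells. The groups did not overlap, but young replicate 4 and aged replicate 3 nearly met. The rise was 3.51-fold in young (adjusted p = 2.94e-12) and 2.27-fold in aged cells (adjusted p = 8.42e-09), the difference under LPS was -0.77 ± 0.109 (adjusted p = 1.37e-05), and the interaction was -0.63 (-0.96 to -0.30, adjusted p = 0.0182). The antisense gene D730005E14Rik on the same strand and Cbx7 on the other overlap its ends, with up to 61 and 262 counts, and Apobec3 had at least 400. The interaction calls of Samhd1, Adar and Apobec3 held with any 1 library left out. With the 4 libraries of batch 2 left out, all 3 missed the threshold, at -0.57 for Samhd1 (adjusted p = 0.0525), -0.39 for Adar (adjusted p = 0.0533) and -0.54 for Apobec3 (adjusted p = 0.161). Apobec3 also missed it without batch 1 (-0.57, adjusted p = 0.0955) or batch 5 (-0.59, adjusted p = 0.072).

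Eif2ak2 (chromosome 17, 78852564 to 78882573, minus strand) encodes PKR, the kinase that senses double-stranded RNA and phosphorylates eIF2α. It stood at 71.2, 67, 66.7, 61.7 and 62.2 CPM in young and 54.5, 60, 56.6, 52.5 and 56.8 CPM in aged untreated cells. These did not overlap, and the log2 difference of -0.23 ± 0.102 was not called (adjusted p = 0.157). With LPS it reached 369, 364, 302, 269 and 302 CPM in young and 202, 172, 265, 183 and 179 CPM in aged cells. It rose 4.88-fold in young (adjusted p = 9.4e-15) and 3.58-fold in aged cells (adjusted p = 7.37e-13), and aged LPS cells were lower by a log2 difference of -0.68 ± 0.0973 (adjusted p = 1.7e-05). The interaction of -0.45 missed the threshold (adjusted p = 0.0603). It passed with the replicate number as a block (adjusted p = 0.0296), with DESeq2 (0.0257) and without aged LPS replicate 3 (0.00178).

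Bst2 (chromosome 8, 71534255 to 71537456, minus strand), or tetherin, had 68.3, 60, 61, 48.8 and 55.1 CPM in young and 51.2, 43.6, 56.5, 44.6 and 45.4 CPM in aged untreated cells. The ranges overlapped, and aged was lower in 5 of 5 batches. The log2 difference of -0.28 ± 0.118 was not called (adjusted p = 0.132) but was called with the replicate number as a block (adjusted p = 0.0303). With LPS it had 279, 255, 229, 188 and 227 CPM in young and 152, 128, 195, 137 and 135 CPM in aged cells, where only aged replicate 3 reached into the young range. It rose 4.02-fold in young (adjusted p = 9.32e-13) and 3.10-fold in aged cells (adjusted p = 6.47e-11), and the difference under LPS was -0.66 ± 0.112 (adjusted p = 0.000125). The interaction of -0.38 was not called (adjusted p = 0.197) and was with the block (adjusted p = 0.0472) and without aged LPS replicate 3 (adjusted p = 0.0325).

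Isg20 (chromosome 7, 78913424 to 78920396, plus strand) is an RNA exonuclease. It had counts of 4, 0, 3, 4 and 4 in young and 1, 1, 0, 1 and 3 in aged untreated cells, too few for a fold between ages. With LPS it rose to 53.6, 40.2, 31.9, 19.8 and 26.8 CPM in young and to 7.73, 7.67, 21.8, 8.28 and 8.97 CPM in aged cells. Aged replicate 3 passed young replicate 4, and the other aged libraries lay at 7.67 to 8.97 CPM. Over summed counts the rise was 171-fold in young (103 to 306) and 149.9-fold in aged cells (68.5 to 409.7), where 6 counts in 5 libraries were the reference. Taken against 3 counts per library the aged ratio was 60. The fitted rise in aged cells of 133-fold was 203-fold without aged untreated replicate 5 and 78.5-fold without batch 3. The difference under LPS was -1.65 ± 0.264 (adjusted p = 6.11e-05).

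**Figure D2:**
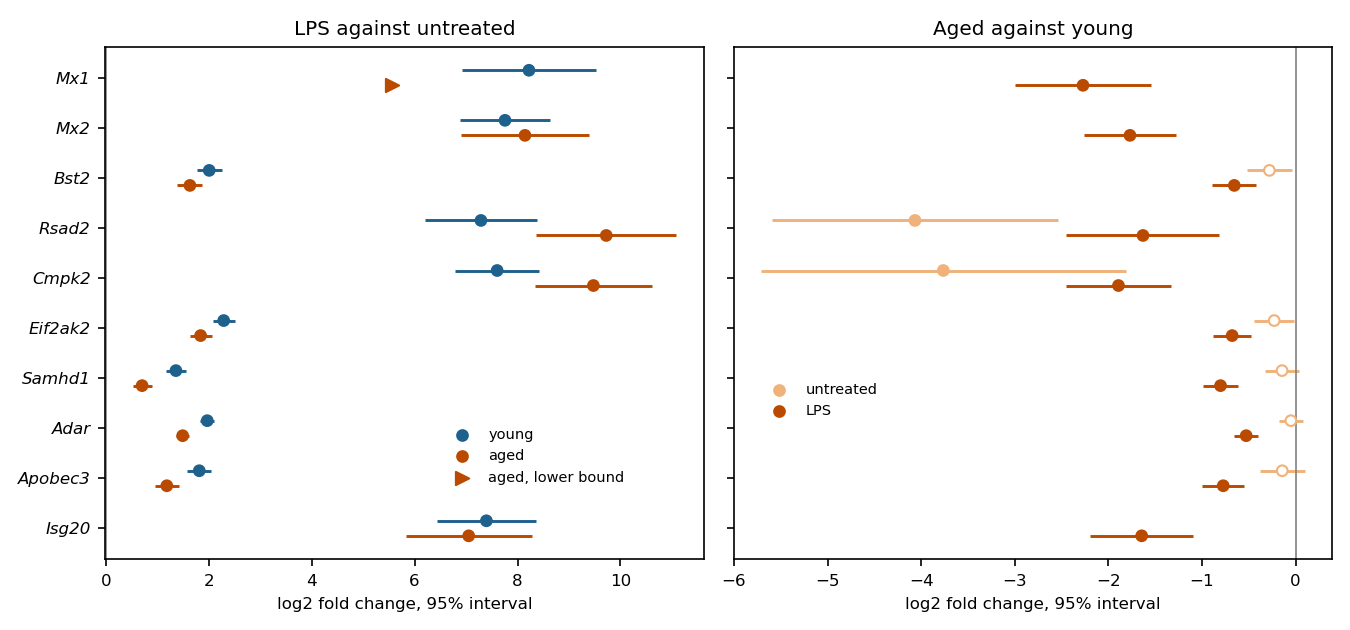
Fitted log2 fold changes from edgeR with 95% intervals derived from its F statistic, filled where the adjusted p was below 0.05. LPS against untreated at each age is on the left, and aged against young in each treatment is on the right. Mx1 in aged cells is drawn at its lower bound of 5.56, and the untreated age differences of Mx1, Mx2 and Isg20 are left out because their counts were too low. All 10 LPS-treated age differences lie below 0.

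The members thus fell into groups of 5 by how far aged cells reached the young LPS level, a division made after the values were seen. Bst2, Eif2ak2, Samhd1, Adar and Apobec3, at 12.5 TPM or more in young untreated cells, reached 57.3% to 69.3%. Mx1, Mx2, Rsad2, Cmpk2 and Isg20, at 11.9 TPM or less, reached 20.3% to 32.3%. These percentages include the untreated level. For the CPM added by LPS, the former 5 reached 36.2% (Samhd1) to 59.9% (Adar) of the young value. The latter 5 reached 20.4% (Mx1) to 32.4% (Rsad2), so that the gap was narrower. The 11.9 TPM of Rsad2 is a mean that includes young untreated replicate 1 at 35.9 TPM. The median log2 difference over the 10 was -1.22, and -0.77 over the 7 other than Mx1, Mx2 and Isg20, where all genes tested had a median of 0.01. The median log2 change with LPS was 4.79 in young and 4.45 in aged cells, or 3.70 in aged cells with Mx1 at its bound, against -0.01 and 0.000511 for all genes. These include Mx1, Mx2 and Isg20, which passed the filter through the LPS groups, and over the other 7 members the medians were 2.01 in young and 1.63 in aged cells. In untreated cells the median age difference was -0.79, and -0.23 over those 7, where all genes had -0.01. The median interaction was -0.36 over the 10 and -0.45 over those 7, against 0.02 for all genes.

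Within batches, aged LPS cells were below young LPS cells in 5 of 5 batches for 10 of 10 members. The share of all genes below in 5 of 5 batches was not computed, and 15.0% of all genes were called lower. The distance varied, and batch 3 had the highest percentage for every member. Rsad2 in aged LPS cells was at 30.3%, 15.7%, 82.8%, 26.8% and 24.9% of the young level in batches 1 to 5, and Eif2ak2 at 54.9%, 47.3%, 87.8%, 68.1% and 59.4%. Aged LPS replicate 3 was the highest aged LPS library for 10 of 10 members, whereas it was the highest for 25.1% of all genes tested and for 50.9% of the 1913 other genes called lower in aged LPS cells. Its untreated counterpart was the lowest aged untreated library for Rsad2 and Cmpk2. Without aged LPS replicate 3, the 10 members were still all called lower in aged LPS cells.

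**Figure D3:**
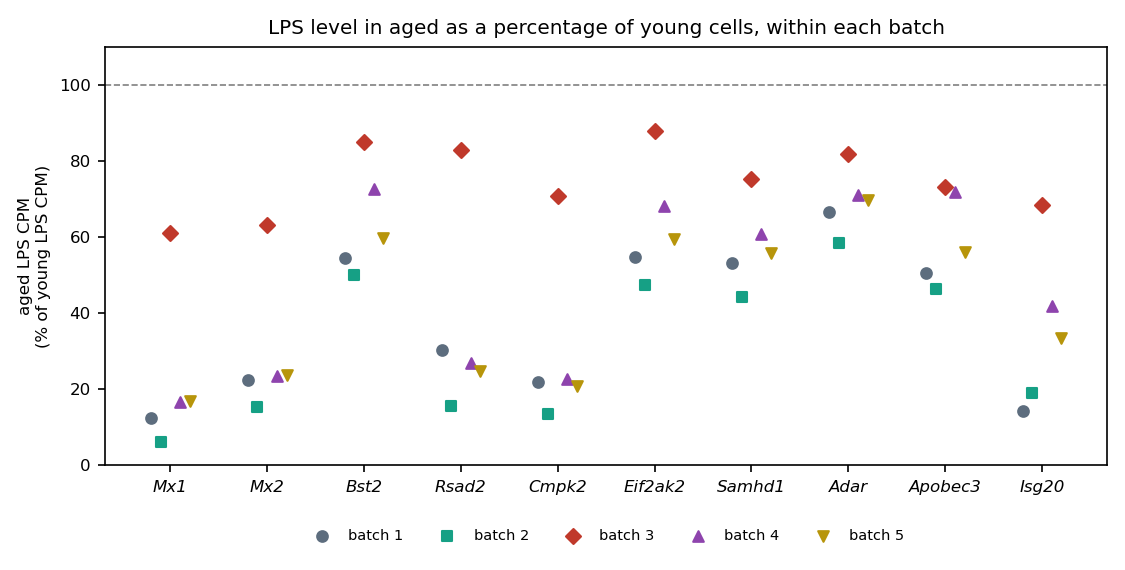
Level in aged LPS cells as a percentage of the level in young LPS cells of the same batch, for each member (CPM over CPM, 5 batches, dashed line at 100%). All 50 points lie under the line, from 6.25% for Mx1 in batch 2 to 87.8% for Eif2ak2 in batch 3.

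In the LPS groups the members also moved together from library to library. Over the 20 libraries, the deviations of log2 CPM from the group means had correlations between members of 0.272 to 0.918, with a median of 0.608 over 45 pairs. In the 10 LPS libraries alone they ran from 0.568 to 0.989 with a median of 0.893. Samhd1 and Adar had the closest pairing with an r of 0.989, Rsad2 and Cmpk2 had 0.986, and Rsad2 and Apobec3 had the loosest with 0.568. These 10 libraries include aged LPS replicate 3, the highest of its group for 10 of 10 members. Its part in these correlations was not tested. In the 10 untreated libraries the 5 members of higher untreated level had correlations of -0.457 to 0.496, with a median of -0.24. Of these 10 pairs, 3 were above 0. The points of such a correlation share library, batch and depth, and it is given as a description.

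**Figure D4:**
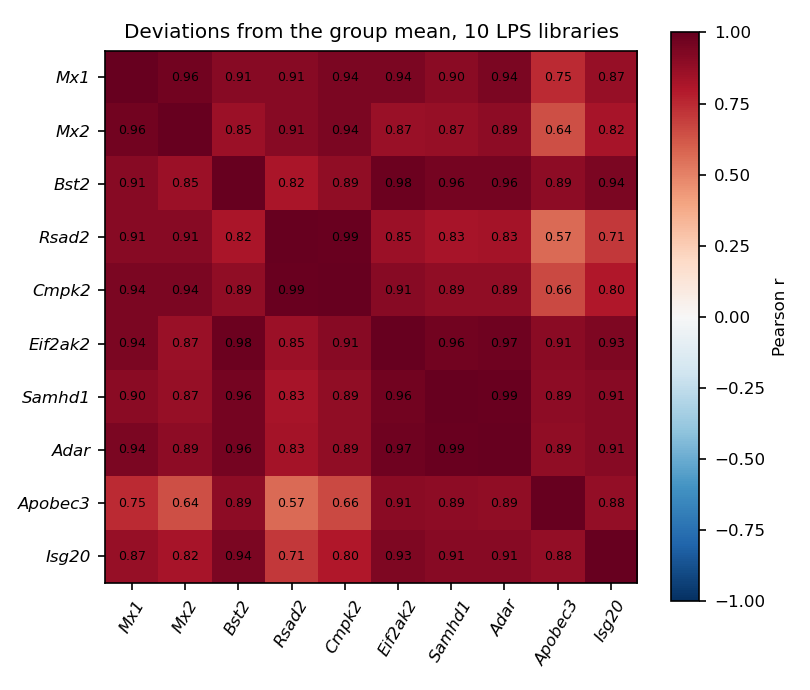
Pearson correlation, between each pair of members, of the deviations of log2 CPM from the group mean over the 10 LPS libraries. All 45 pairs are above 0, from 0.568 to 0.989, and Apobec3 has the palest row.

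Outside the list, the genes most like each member over all 20 libraries, by Pearson r of log2 CPM and up to 3 per member, were mostly known interferon-stimulated genes. Bst2 was closest to Tapbp (r = 0.997), and Parp10 (0.994) was also among its nearest. Rsad2 was closest to Rtp4, Ifit1 and Isg15 (each 0.994), and Cmpk2 to Gbp2 and Isg15 (0.995) and Rtp4 (0.994). Mx1 was close to Ifit2 and Znfx1 (0.995), Mx2 to Gbp5 (0.996), Ifit3b and Zbp1 (0.995), and Isg20 to Oas3 (0.995), Gm43802 and Parp9 (0.992). For Adar the closest was the antiviral zinc-finger gene Zc3hav1 (0.998), before Rnf19b and Cflar (0.996). Apobec3 was closest to Clic4 (0.993), Ifi205 and Ptprc (0.992), and Samhd1 to H2-T22 (0.990), Ptprc (0.988) and Daxx (0.987). Eif2ak2 was close to Gm28177 and Ifit2 (0.998). With treatment spanning most of the range, such values are high for many genes that respond to LPS.

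The genes that carry the interferon signal were described from a list of 14, of which 13 passed the filter. With LPS 12 of 13 rose in young and 11 of 13 in aged cells, where 31.2% and 27.5% of all genes rose. In aged against young LPS cells 12 of 13 were lower, where 15.0% of all genes were, and the median log2 difference was -0.93. Stat2 and Irf9, which belong to the complex that binds the response element, were lower in aged LPS cells by -1.34 (adjusted p = 1.68e-05) and -0.41 (adjusted p = 0.00154). Stat2 rose with LPS by 3.44 in young and 2.21 in aged cells on the log2 scale, and Irf9 by 2.73 and 2.6. The interaction was called for Stat2 (-1.23, adjusted p = 0.0155) and Irf1 (-0.85, adjusted p = 0.0349), and below 0 for 2.27% of all genes. In untreated cells 4 of 13 were lower in aged cells, where 7.81% of all genes were. The largest difference was that of Irf7, the factor that amplifies interferon production (-1.89, adjusted p = 0.0308). Irf7 rose by 6.39 in young and 7.13 in aged cells, and its interaction of 0.74 was not called (edgeR, adjusted p = 0.575). Its aged untreated libraries stood at only 0.342 to 0.999 CPM, where 3 counts correspond to at most 0.202 CPM. Ifnb1 itself had 0 counts in all 10 untreated libraries, 5, 7, 2, 1 and 5 counts in young LPS and 2, 0, 4, 2 and 2 in aged LPS cells, and did not pass the filter.

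Of the 8 genes from the LPS receptor to the interferon kinases, 6 rose and 2 fell with LPS at each age. Of all genes, 31.2% rose and 33.5% fell in young cells, and 27.5% and 26.9% in aged cells. Tlr4, the receptor, fell by 1.03 in young and by 0.78 in aged cells and did not differ detectably by age (log2 -0.15, adjusted p = 0.307 untreated; 0.10, adjusted p = 0.502 with LPS). Its co-receptor Cd14 rose by 2.84 in young cells, and Ikbke, a kinase of the arm, by 2.92 in aged cells. Under LPS 5 of 8 were lower in aged cells, Cd14 by the most (-0.64, adjusted p = 0.0166), where 15.0% of all genes were lower. In untreated cells 1 of 8 was lower, Ikbke (-0.45, adjusted p = 0.00906), where 7.81% of all genes were. The interaction was called for Tbk1 (-0.28, adjusted p = 0.0136), and below 0 for 2.27% of all genes.

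Of 15 other restriction factors 9 passed the filter. With LPS 5 of 9 rose at each age, where 31.2% of all genes rose in young and 27.5% in aged cells. In young cells 1 fell and in aged cells 2, where 33.5% and 26.9% of all genes fell. In aged against young LPS cells 7 of 9 were lower, where 15.0% of all genes were. Ifitm3, which blocks viral fusion, led with fitted rises of 6.87 in young and 4.42 in aged cells. The size of these rises is uncertain, because the untreated means, 0.192 CPM (young) and 0.232 CPM (aged), lie near 3 counts per library. Ifitm3 also led under LPS, with an age difference of -2.27 (adjusted p = 2.89e-05). Its aged LPS libraries spread from 2.56 to 12.0 CPM (mean 4.87, SD 4.03), and the young LPS ones from 12.2 to 35.6 CPM. The exonuclease gene Trex1 was lower by -1.21 (adjusted p = 4.36e-07), with an interaction of -0.81 (adjusted p = 0.017), and Zc3hav1 and Trim25 also had a called interaction below 0. Such an interaction was called for 2.27% of all genes. Serinc3 was the largest of the 2 lower in untreated aged cells (-0.51, adjusted p = 2.13e-05), where 7.81% of all genes were lower.

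Relatives of the members in sequence or activity fell more often than they rose with LPS. Of the 11 of 13 that passed the filter, 1 rose and 6 fell at each age, with a median log2 change of -0.25 in young and -0.16 in aged cells. Of all genes, 33.5% fell and 31.2% rose in young cells, and 26.9% and 27.5% in aged cells. Under LPS 2 were higher in aged cells, where 14.0% of all genes were, and 2 lower, where 15.0% were. In untreated cells 2 were higher, where 3.71% of all genes were, and 1 lower, where 7.81% were. Adarb1, an RNA-editing enzyme like Adar, was higher in aged cells untreated (0.27, adjusted p = 0.0362) and with LPS (0.44, adjusted p = 0.000674). The eIF2α kinase gene Eif2ak3 had an interaction above 0 (0.62, adjusted p = 0.00103), as did 4.12% of all genes.

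The deoxynucleotide supply genes, which act on the pool that Samhd1 depletes, mostly fell with LPS. Of 9 genes, 7 fell and 2 rose with LPS at each age. Of all genes, 33.5% fell and 31.2% rose in young cells, and 26.9% and 27.5% in aged cells. Under LPS 5 of the 9 were higher and 1 lower in aged cells, where 14.0% and 15.0% of all genes were. The ribonucleotide reductase subunit Rrm2 was 1.01 higher on the log2 scale in aged LPS cells (adjusted p = 6.09e-07). Its interaction of 0.89 (adjusted p = 0.000887) was 1 of 5 called above 0, where 4.12% of all genes were. Tk1, thymidine kinase, fell the most with LPS, by 1.89 in young and 1.39 in aged cells. It was the 1 gene lower in untreated aged cells (-0.29, adjusted p = 0.0428), where 7.81% of all genes were. Among 8 partners and targets of PKR, 6 rose at each age, led by Ppp1r15a in young (2.23) and Ddit3 in aged cells (1.85), while 2 fell in young and 1 in aged cells. The shares of all genes that rose or fell are those given above. Under LPS 1 of 8 was lower in aged cells, Ppp1r15a (-0.68, adjusted p = 9.61e-06), where 15.0% of all genes were. In untreated cells 1 of 8 was higher, Eif2s1 (0.18, adjusted p = 0.0228), where 3.71% of all genes were. None of the 8 had an interaction called by edgeR, 2 had an unadjusted p under 0.05, and DESeq2 called 1.

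**Figure D5:**
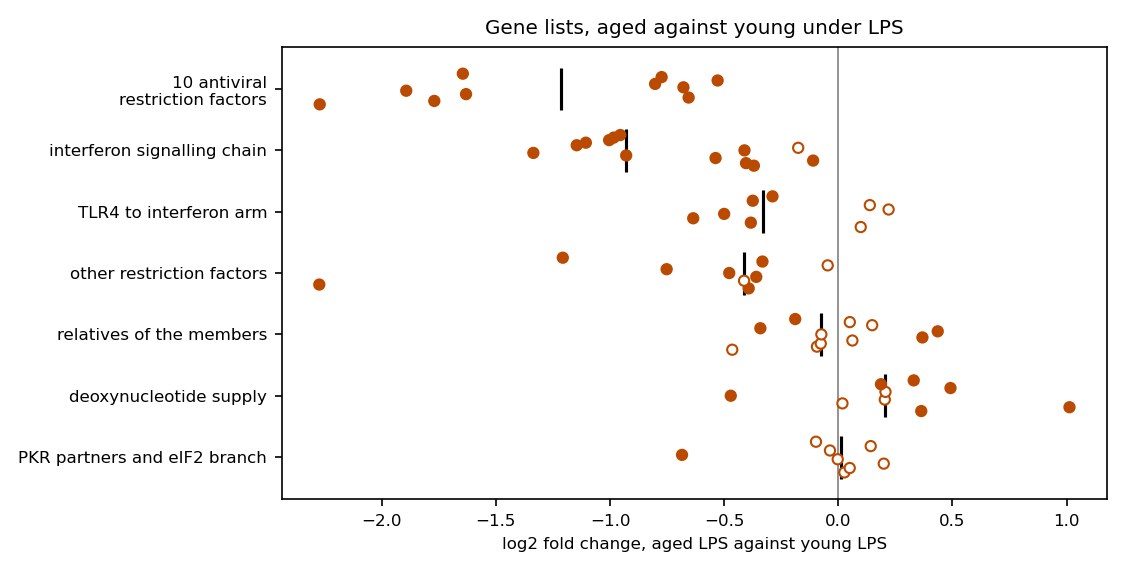
Log2 fold change of aged against young LPS cells for each tested gene of 7 lists, filled where the adjusted p was below 0.05, with a line at each list's median. The 10 restriction factors are all filled and below 0 with a median of -1.22, and the deoxynucleotide supply genes have a median of 0.21.

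Library totals were 11371508 to 16829292 counts, so that 3 counts correspond to 0.165 to 0.296 CPM. The 11 microglia and macrophage markers were all measured, but Cx3cr1 and P2ry12 averaged at most 1.05 and 1.18 CPM in any group. Under LPS 4 of the 11 were lower and 1 higher in aged cells, where 15.0% and 14.0% of all genes were. The summed level of these 11 markers was 3077 to 4269 CPM in young LPS and 2696 to 3822 CPM in aged LPS libraries, and its part in the age difference was not tested. All defining markers of neurons, astrocytes, fibroblasts and lymphocytes summed to at most 1.25 CPM in any library. Among 4 endothelial markers Flt1 stood at 320.3 to 368 CPM in the group means, and Cldn5 was at 0.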

How the data were processed

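RNA-seq libraries of 20 BV-2 samples were prepared by the authors with a stranded poly(A) protocol, aligned with STAR 2.6.1d and counted per gene with featureCounts 1.5.1 (versions from the submitters' processing notes) on GRCm38. The authors deposited raw counts per Ensembl gene, without normalization. Strand and multi-mapping settings are not given in the sources used here, so reads shared with overlapping genes or near-identical copies are uncertain. Library totals were 11371508 to 16829292, and intervals and floors from counts cover counting error only.

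Counts were fitted with edgeR 4.0.16 (glmQLFit and glmQLFTest, TMM factors, filterByExpr) over all 20 libraries in 4 groups, without a block, as the study compared groups without a covariate. Adjusted p-values are Benjamini-Hochberg over the 12799 genes tested. CPM used TMM-scaled library sizes. TPM used exon lengths of GENCODE M21, in which 55227 of 55487 identifiers were found. Log2 CPM for correlations had a prior count of 2. The fit was tested on simulated data. DESeq2 1.42.0, the replicate block, other scalings, filters and thresholds and the removal of batches or single libraries were alternatives. Same-numbered samples carry the same batch number in the labels, and their deviations from group means correlated at 0.146 on average (30 pairs), against -0.0358 for different numbers. No pair of libraries of a group agreed within sampling noise (chi-square per degree of freedom 2.31 to 24.4).

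The members and gene lists were chosen with earlier results of these data known. The text names all members, Ifnb1, Stat2, Irf9, Irf7 and Tlr4, the called gene of largest change per list and comparison, and the 3 most alike genes per member above a mean of 1 CPM, except that single-gene results for 2 genes these rules name are not reported here. Others named (Irf1, Trex1, Zc3hav1, Trim25, Cldn5, Flt1, Cx3cr1 and P2ry12) were chosen after their values were seen.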

Additional observations from a re-analysis of the deposited data

Results flagged for a closer look

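In the member values, 5 of the 37 sets of 5 libraries held a library far from the rest of its group, by a gap to its nearest neighbour above 0.71 of the group's range. Chance alone would mark about 1 in 20 groups if the groups were independent. They were not, because the members moved together in the LPS libraries, and the flags of Mx1, Mx2 and Isg20 are the same library. Aged LPS replicate 3 was the distant library for Mx1 (21 CPM, the next 7.23), Mx2 (25.9 CPM, the next 11.4) and Isg20 (21.8 CPM, the next 8.97). Young untreated replicate 1 stood apart for Rsad2 (43.7 CPM, the next 12.7), and young untreated replicate 2 was low for Adar (70.5 CPM, the next 76.0).

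The change with LPS differed between the ages, by the interaction term of edgeR, for Samhd1 (-0.66 on the log2 scale, adjusted p = 0.00262), Adar (-0.48, adjusted p = 0.00202) and Apobec3 (-0.63, adjusted p = 0.0182). Each rose in both ages and rose less in aged cells.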

How the results depend on the processing

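Of 1562 recomputed fold changes of single members, 1536 kept their direction and their side of the threshold. The 10 of 10 calls with LPS in young cells, with LPS in aged cells and between aged and young LPS cells held under every alternative, except that a minimum of 10 counts in every library left 5 members tested, Bst2, Eif2ak2, Samhd1, Adar and Apobec3, of which 5 were called in each. In untreated cells 2 members were called lower in aged cells. With that minimum, which removes Rsad2 and Cmpk2, edgeR called 0 and 2 had an unadjusted p under 0.05, an adjusted p below 0.01 left 1, a fit of only the untreated groups gave 4 of the 7 tested (Eif2ak2 at 0.0155 and Samhd1 at 0.0429 in addition), DESeq2 gave 3 (Mx1 at 0.0249), and leaving out a batch or a library gave 1 to 2. The interaction was called for 3 members, for 5 with the replicate number as a block, for 5 without a low-count filter, for 4 with DESeq2, and for 0 to 5 with a batch or a library left out, the 0 (edgeR, with 6 at an unadjusted p under 0.05) without batch 2 and the 5 without aged LPS replicate 3. The block added Bst2 in untreated cells and Bst2 and Eif2ak2 in the interaction, and changed no other call of a member. Changes of sign were limited to 2 interactions that were not called. That of Mx2, 0.39, ranged from -0.59 to 0.99 with a batch or a library left out, and that of Isg20, -0.34, from -1.09 to 0.27. Both rest on untreated counts near 0, and a count of 3 per library limits what can be seen there for Mx1, Mx2 and Isg20. In aged untreated cells Cmpk2 was also at 3 counts or fewer in 3 libraries, and Rsad2 in 1.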
